A study of Mus musculus with 25 samples.

Results

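Mature microRNAs (miRNAs) annotated to the Gnas, Mest and Sfmbt2 regions were followed in small extracellular vesicles (sEVs, membrane particles that cells shed) isolated from mouse liver. The 8 entries were taken by name from the 1493 entries of the deposited count table. The choice was made with earlier results of these data known, so it was not independent of their values. They are mmu-miR-298-5p and mmu-miR-296-3p of the Gnas region, both arms of Mest-hosted miR-335 (mmu-miR-335-5p and mmu-miR-335-3p), and mmu-miR-669c-5p, mmu-miR-467c-5p, mmu-miR-467e-5p and mmu-miR-467h, listed as hosted by Sfmbt2; the species prefix is left off from here on. The mice were wild-type C57BL/6J animals aged 1 week, 6 weeks, 6 months, 12 months or 14 months, with 5 mice and 5 libraries at each of the 5 ages. Both sexes were equally represented per the labels, which do not give the sex of each mouse. The label for batch repeats the age, so handling and age cannot be told apart.

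Imprinted genes are read from a single parental copy, and many of them are growth genes that are strongly expressed before and around birth and then wane in liver. Gnas encodes a G protein subunit and sits in a complex imprinted domain with the antisense transcript Nespas. Mest, also called Peg1, encodes an enzyme of the hydrolase fold and is expressed from the paternal copy in the embryo. Sfmbt2 encodes a Polycomb protein, and one of its introns carries a large rodent cluster of related miRNAs that is best known from placenta.

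The positions in the GRCm38 annotation (GENCODE M21; the files' build mm10 is the same assembly) fitted the labelled loci for 7 of the 8 entries. Mir296 (chr2:174267047-174267125) and Mir298 (chr2:174267504-174267585) lie 378 bp apart on the minus strand and overlap no annotated gene. They lie 13651 bp beyond the 3′ end of Nespas, which runs on the same strand, and 16734 bp before the start of Gnas on the plus strand. Mir335 (chr6:30741299-30741396, plus strand) is intronic in all 7 Mest transcripts that span it. Mir467c (chr2:10473931-10474027), Mir467e (chr2:10505721-10505807) and Mir669c (chr2:10509296-10509404) lie in 1 intron of Sfmbt2 on its own strand, numbered 10 or 11 by transcript, and the gene holds 71 annotated miRNA precursors. Mir467h goes against its label: it lies on chromosome 9 (chr9:115381819-115381939, plus strand), overlaps no gene, and its nearest coding gene, Stt3b, is 71398 bp away. It is therefore described separately, as a miR-467 family member outside Sfmbt2.

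The mature sequences below are RefSeq's (GRCm38.p6), matched by name for 5 of the 8 entries, and are shown because the seed, bases 2 to 8 in capitals, is what a miRNA uses to find its targets. No 2 of these 5 seeds are the same. The seeds of miR-669c-5p, miR-467c-5p and miR-467e-5p were not compared.
miR-298-5p: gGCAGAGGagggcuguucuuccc
miR-296-3p: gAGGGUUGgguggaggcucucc
miR-335-5p: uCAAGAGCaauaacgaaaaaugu
miR-335-3p: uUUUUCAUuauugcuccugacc
miR-467h: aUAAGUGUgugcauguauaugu

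The 3 hairpins are printed with both annotated arms in capitals, because the results include the balance of arms. In Mir296 the counted arm miR-296-3p is the second run of capitals, in Mir298 miR-298-5p is the first, and in Mir335 the 5p arm is the first.
Mir296: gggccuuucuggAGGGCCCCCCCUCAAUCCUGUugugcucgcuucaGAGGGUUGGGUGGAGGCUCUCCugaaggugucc
Mir298: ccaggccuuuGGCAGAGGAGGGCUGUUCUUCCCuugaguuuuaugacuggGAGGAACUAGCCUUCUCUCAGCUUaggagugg
Mir335: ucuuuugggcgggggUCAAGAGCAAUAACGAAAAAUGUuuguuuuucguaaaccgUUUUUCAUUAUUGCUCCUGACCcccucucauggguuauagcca

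Levels are given in CPM, counts per 1000000 of the library total scaled by trimmed mean of M-values (TMM) factors, and means carry the SD over the 5 libraries of an age. All 8 entries are 22 or 23 bases long, so differences in length hardly enter their CPM. Other effects of sequence on the counts were not assessed, so levels of different miRNAs can be compared only roughly. Library totals ran from 641579 to 6888928 counts. A floor of 3 counts equalled 1.78 to 4.89 CPM in the libraries of 6 weeks, the shallowest age on average, but 0.283 to 0.911 CPM in those of 1 week. Differences are log2 fold changes, older over younger age, with an approximate SE, from 1 edgeR quasi-likelihood model of all 25 libraries with p-values adjusted over 391 tested entries by the Benjamini-Hochberg method. The threshold was an adjusted p of 0.05. In bulk vesicle RNA, fewer vesicles from a cell type and less of a miRNA per vesicle cannot be told apart.

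The first question was how these miRNAs differ between adult liver and the first postnatal week. All 8 were lower at each adult age, and in all 8 each of the 20 adult libraries lay below every 1-week library. The same was true of 25.3% of all tested entries, and of 28.6% with the 6-week libraries as the only adults. In the contrast of 6 weeks with 1 week all 8 passed the test as lower, against a background of 36.8% of tested entries that passed as lower and 71.9% that passed in either direction. They also did so for 14 months against 1 week (background 37.3% lower, 72.9% in either direction) and for the 4 adult ages together (40.4% lower, 79.8% in either direction). The count is not support in itself. All 8 passed the filter on low counts, but 6 of them did so through the 1-week libraries alone and could hardly have come out otherwise; miR-335-5p and miR-669c-5p reached the minimum in at least 5 adult libraries as well. The fall ranged from the near loss of the Gnas pair to log2 fold changes of -2.63 to -1.15 for the rest.

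**Figure D1:**
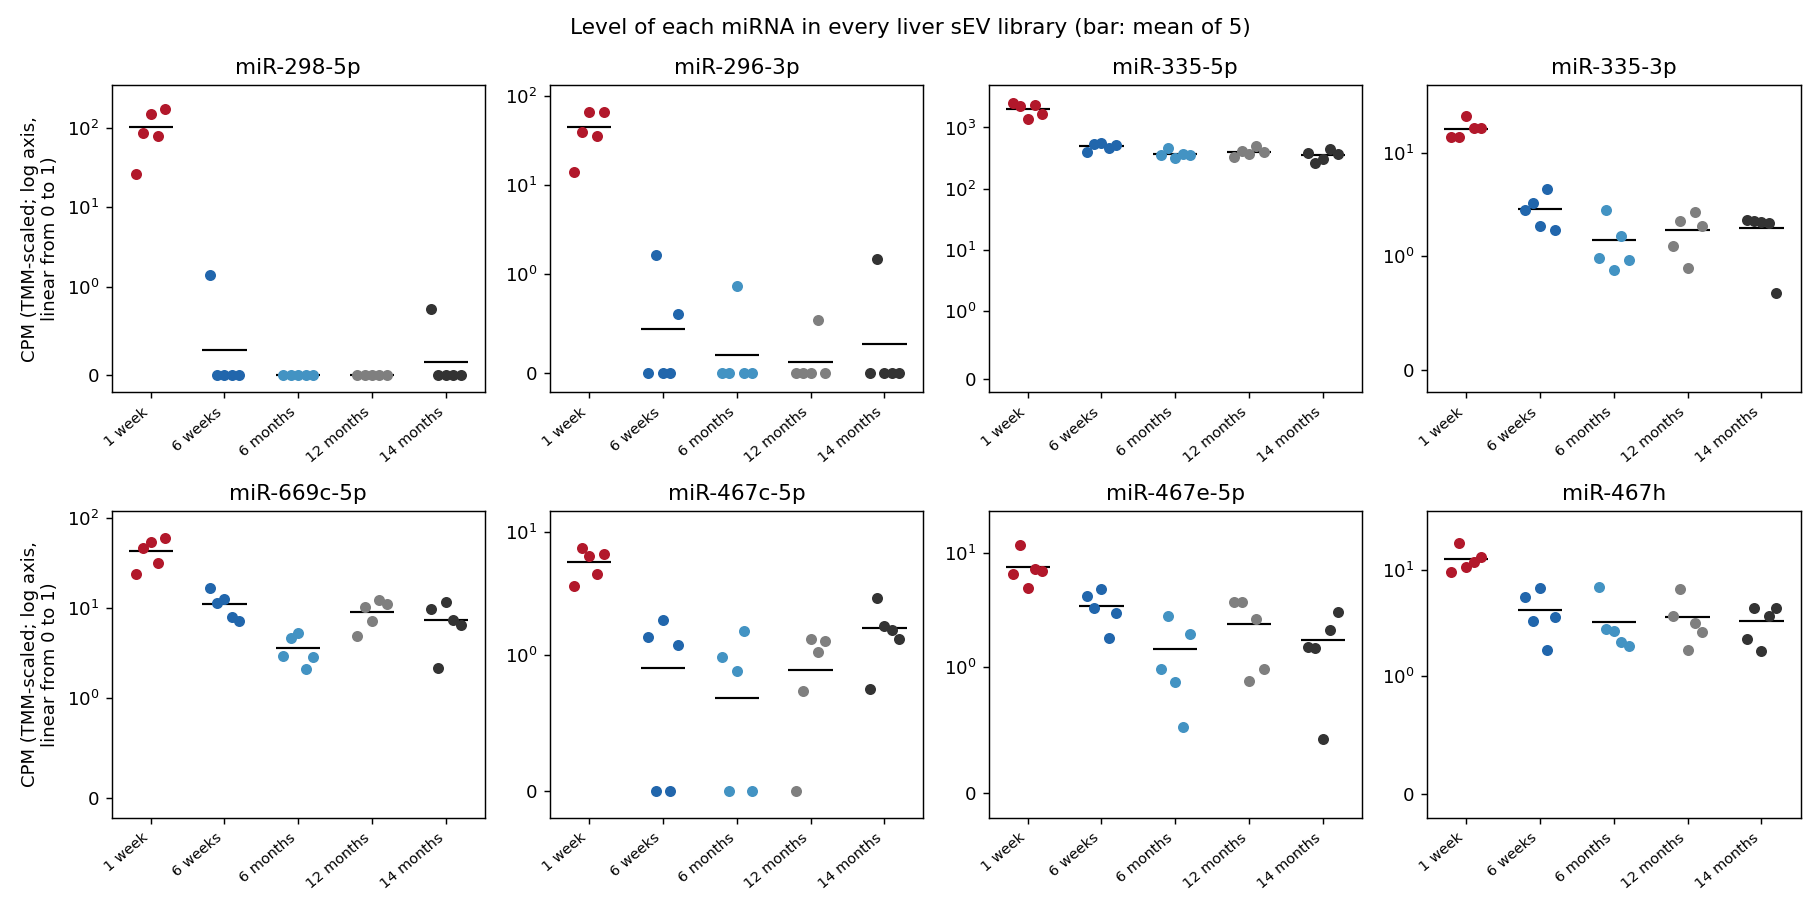
CPM (TMM-scaled) of each of the 8 miRNAs in all 25 libraries by age; each point is 1 library, each bar the mean of 5, and each panel has its own axis, which is logarithmic above 1 and linear from 0 to 1. In every panel the 5 points of 1 week lie above the 20 adult points, and miR-298-5p and miR-296-3p drop to 0 in most adult libraries.

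The Gnas pair had the widest gap between ages. In the 20 adult libraries together miR-298-5p had 2 counts, 1 in mouse 6 (6 weeks) and 1 in mouse 21 (14 months). All libraries of 6 and 12 months were at 0 counts, where 3 counts would equal 0.978 to 3.71 CPM. The libraries of 1-week mice 1, 3, 4, 5 and 27 held 115, 322, 582, 263 and 1845 counts, which is 26.1, 86.1, 149.9, 79.8 and 173.9 CPM. Even the lowest 1-week library thus stood 18.7-fold above the highest adult one.

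The mean of miR-298-5p was 103 ± 59.1 CPM at 1 week. For the 4 adult ages against 1 week the fitted log2 fold change was -9.94 ± 0.49, with few adult counts behind it. Ratios of counts summed over libraries are given beside it. Their intervals cover counting error only, not the spread between mice, and mouse 27 held 1845 of the 3127 counts of 1 week. Taken over the 20 adult libraries, the ratio of 1 week to adult was 1848 (exact 95% interval 511 to 15268). It was 3610 without mouse 6 and 3535 without mouse 21, each of which leaves 1 adult count, and 1282 without mouse 27, whose library was the deepest. The libraries of 6 months and 12 months held 0 counts, so a floor of 3 counts in all libraries of an age together was used. With this pooled floor, lower in CPM than that of any single library, the 1-week level was at least 249-fold higher than at 6 months. Against 12 months it was at least 377-fold higher. For 6 weeks against 1 week edgeR called the entry lower (adjusted p = 3.29e-08).

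miR-296-3p, from the neighbouring hairpin, followed the same course at a lower level. The 20 adult libraries held 6 counts in 5 libraries, the highest at 1.63 CPM in mouse 7 of 6 weeks. At 1 week it had 61, 146, 255, 116 and 701 counts in mice 1, 3, 4, 5 and 27, or 13.8, 39.0, 65.7, 35.2 and 66.1 CPM. No adult library came within 8-fold of the lowest 1-week library, the closest ratio being 8.48.

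In summed counts the ratio of 1 week to 6 weeks for miR-296-3p was 128 (exact 95% interval 35.2 to 1055) from 2 counts at 6 weeks. It was 225 without mouse 7, which held 1 of them. Over all 20 adult libraries the ratio was 252 (115 to 688), or 193 without mouse 27. The fitted log2 fold change for the 4 adult ages against 1 week was -7.44 ± 0.44. edgeR called miR-296-3p lower at 6 weeks (adjusted p = 2.57e-08). The 2 Gnas-region hairpins kept similar proportions at 1 week. The miR-298-5p counts were 1.89, 2.21, 2.28, 2.27 and 2.63 times those of miR-296-3p in mice 1, 3, 4, 5 and 27, a mean of 2.25 ± 0.266 (SD, n = 5). This ratio varied less than the level of each miRNA, which differed several-fold among the same 5 mice. It was lowest in mouse 1 and highest in mouse 27, as were both levels.

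The other arm of Mir296, miR-296-5p, was scarce and did not pass the filter. It had 4 counts in all adult libraries, against 114 at 1 week. Its 1-week counts were 3, 2, 34, 3 and 72 in mice 1, 3, 4, 5 and 27. As a share of both arms miR-296-3p held 95.3%, 98.6%, 88.2%, 97.5% and 90.7% in these mice, with exact binomial 95% intervals of 83.9 to 91.7% in mouse 4 and 88.4 to 92.6% in mouse 27. The 3p arm was thus the main one in every 1-week library, by a smaller margin in mice 4 and 27. The other arm of Mir298 has no entry in the count table.

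miR-335-5p, the main product of the Mest intron and the most abundant of the 8, was present in every library. It was at 398, 547, 547, 466.4 and 517 CPM in the libraries of 6 weeks. At 1 week it was at 2483, 2271, 1364, 2349 and 1633 CPM in mice 1, 3, 4, 5 and 27. The groups were far apart, the lowest 1-week library being 2.49-fold above the highest adult one.

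By age, miR-335-5p averaged 2020 ± 491 CPM (1 week), 495 ± 63.6 (6 weeks), 372 ± 51.2 (6 months), 399.8 ± 65.9 (12 months) and 356 ± 73.7 (14 months). It fell by 2.03 ± 0.18 on the log2 scale for 6 weeks against 1 week (edgeR adjusted p = 4.08e-10). It was at -2.51 ± 0.18 for 14 months against 1 week (adjusted p = 8.84e-12) and at -2.33 ± 0.12 for the 4 adult ages against 1 week (adjusted p = 3.33e-15). A smaller step between adult ages did not pass: 6 months against 6 weeks was at -0.41 ± 0.17 (adjusted p = 0.417; unadjusted p = 0.0266) and 14 months against 6 weeks at -0.48 ± 0.17 (adjusted p = 0.135; unadjusted p = 0.0112). That last difference reached the threshold with library totals in place of TMM factors (-0.76, adjusted p = 0.0155, where the median of all entries shifted by -0.26) and in a fit of those ages alone (-0.57, adjusted p = 0.0321). The difference of 6 months from 6 weeks reached it in a fit of the 2 ages alone (adjusted p = 0.0393).

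Each of the 20 adult libraries held 1 to 6 counts of the 3p arm, miR-335-3p, with the highest at 4.43 CPM. In 1-week mice 1, 3, 4, 5 and 27 it was at 14.3, 14.4, 23.2, 17.6 and 17.4 CPM, above all adult libraries. It fell by 2.63 ± 0.38 for 6 weeks against 1 week (edgeR adjusted p = 9.07e-07) and was at -3.24 ± 0.37 for 14 months against 1 week (adjusted p = 1.49e-08). Between adult ages its means were 2.84 ± 1.08 CPM (6 weeks), 1.44 ± 0.808 (6 months), 1.78 ± 0.715 (12 months) and 1.87 ± 0.669 (14 months), and none of the differences passed.

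Within a library the 2 arms of Mir335 need no scaling between libraries. The 5p arm held a share of 99.07% ± 0.452 (1 week), 99.41% ± 0.250 (6 weeks), 99.63% ± 0.149 (6 months), 99.57% ± 0.122 (12 months) and 99.45% ± 0.245 (14 months) of their counts. Mouse 4 had the lowest share at 98.3% (exact binomial 95% interval 98.0 to 98.7%), below the intervals of the other 1-week mice. The share at 6 weeks exceeded that at 1 week by 0.350 percentage points (exact two-sided permutation p = 0.159, adjusted over 5 tests p = 0.397). None of the 5 differences passed, with adjusted p from 0.397 to 0.786, where 0.00794 is the smallest unadjusted p that 5 against 5 libraries allow. Of these tests 1 compared an adult age with 1 week, that of 6 weeks; the later ages were not tested against 1 week. In pooled counts miR-335-3p had 57 of 12309 counts of both arms in adult libraries, against 450 of 50258 at 1 week.

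**Figure D2:**
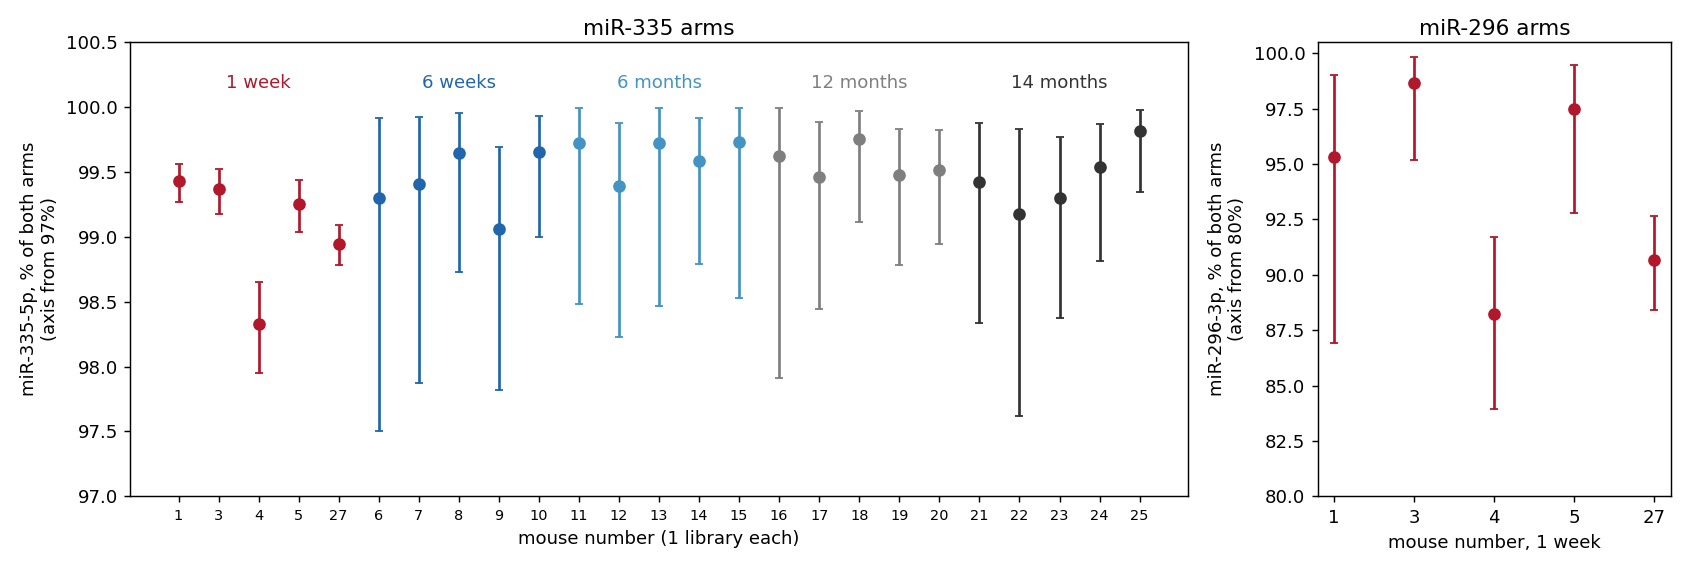
Left, the 5p share of miR-335 counts (percent of both arms, axis from 97%) in all 25 libraries by mouse number and age; right, the 3p share of miR-296 counts (axis from 80%) in the 5 libraries of 1 week. Points are single libraries and bars exact binomial 95% intervals; mouse 4 is lowest in both panels, at 98.3% and 88.2%.

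The 3 miRNAs of the Sfmbt2 intron were low in abundance. Together they summed to 56.6 ± 16.8 CPM (1 week), 15.5 ± 5.31 (6 weeks), 5.67 ± 1.46 (6 months), 12.4 ± 3.22 (12 months) and 10.8 ± 2.65 (14 months). Most of that was miR-669c-5p, with 241 counts in the adult libraries.

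At 1 week miR-669c-5p was at 24.0, 46.0, 54.1, 31.9 and 60.5 CPM in mice 1, 3, 4, 5 and 27. It was at 16.7, 11.4, 12.6, 7.97 and 7.14 CPM in the libraries of 6 weeks, from 7 to 13 counts each. The library values at 6 months were 2.95, 4.66, 5.26, 2.08 and 2.88 CPM, from 3 to 6 counts each. The 6-month libraries were the lowest as a group, and all 5 lay below all 5 libraries of 6 weeks, which was so for 1.79% of tested entries.

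At 12 months miR-669c-5p was at 4.94, 10.3, 7.11, 12.2 and 11.1 CPM, and at 14 months at 9.71, 2.18, 11.6, 7.36 and 6.42 CPM. These groups overlapped each other and those of 6 weeks. For 6 weeks against 1 week it fell by 1.99 ± 0.36 (edgeR adjusted p = 2.84e-05), and 14 months against 1 week was at -2.52 ± 0.36 (adjusted p = 6.1e-07).

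Between consecutive adult ages miR-669c-5p was the only one of the 8 that passed in any contrast. For 6 months against 6 weeks it was lower by 1.63 ± 0.43 (edgeR adjusted p = 0.0487), where 1.79% of tested entries were called in either direction and 0.767% as lower. The direction was the same in all 34 alternatives, with log2 fold changes of -1.83 to -1.44. The call, just inside the threshold, was lost in 22 of the 34, with adjusted p of 0.0232 to 0.245 over all of them; examples are library totals alone (adjusted p = 0.0696) and leaving out mouse 6 (adjusted p = 0.153) or mouse 14 (adjusted p = 0.150). With 1 library left out at a time, the call was kept without mouse 1, 5, 10, 13, 22, 23 or 27 and lost without any other.

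The next step, 12 months against 6 months, was upward at 1.40 ± 0.42 but did not pass (adjusted p = 0.358; unadjusted p = 0.00248), and 14 months against 6 weeks was at -0.53 ± 0.38 (adjusted p = 0.420). Set against miR-335-5p in the same library, where no scaling enters, miR-669c-5p had 8.26, 10.2, 16.6, 5.58 and 8.00 counts per 1000 miR-335-5p counts at 6 months, against 13.8 to 42.1 at 6 weeks. Here the groups overlapped, through mouse 13. The same ratio was 9.68 to 39.6 at 1 week, a range in which most adult libraries also lay.

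miR-467c-5p had 36 counts over 15 of 20 adult libraries, at most 4 per library and at most 2.91 CPM. At 1 week it was at 3.63, 7.49, 6.44, 4.55 and 6.69 CPM in mice 1, 3, 4, 5 and 27. The 6-week libraries held 5 counts in all, at most 2 each, below the floor of 3 counts (1.78 to 4.89 CPM). The lowest 1-week value lay within that range of floors. From few counts, then, miR-467c-5p fell by 2.53 ± 0.60 for 6 weeks against 1 week (edgeR adjusted p = 0.000533). It was at -1.78 ± 0.49 for 14 months against 1 week (adjusted p = 0.002). With mouse 1, 3, 4 or 27 left out it did not pass the filter and was not tested. Its adult means ran from 0.684 ± 0.677 CPM at 6 months to 1.66 ± 0.790 at 14 months, and no adult contrast passed.

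miR-467e-5p had the smallest difference between 6 weeks and 1 week. The 6-week libraries held 4.19, 3.26, 4.84, 1.77 and 2.97 CPM, from 2 to 5 counts each. It was at 6.58, 11.8, 4.89, 7.29 and 6.97 CPM at 1 week in mice 1, 3, 4, 5 and 27. The groups nearly touched, at 4.84 CPM in mouse 8 of 6 weeks and 4.89 CPM in mouse 4 of 1 week.

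The difference of 6 weeks from 1 week for miR-467e-5p was -1.15 ± 0.47 (edgeR adjusted p = 0.0296), and the call was lost in 6 of 35 alternatives. These were upper quartile factors (-0.70, adjusted p = 0.196), no filter (adjusted p = 0.0993), and leaving out mouse 3 (adjusted p = 0.0945), mouse 7 (adjusted p = 0.0518), mouse 9 (adjusted p = 0.0922) or mouse 10 (adjusted p = 0.0674). For 14 months against 1 week it was at -2.06 ± 0.46 (adjusted p = 0.000268), which held in all 35 alternatives. The level was 1.42 ± 0.927 CPM at 6 months, against 3.41 ± 1.18 CPM at 6 weeks, a difference of -1.29 ± 0.60 that did not pass (adjusted p = 0.550).

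Outside Sfmbt2, miR-467h was at 6.87 CPM in its highest adult library, mouse 11 of 6 months, and at 1.72 CPM in its lowest. At 1 week it was at 9.52, 17.9, 10.6, 11.8 and 13.1 CPM in mice 1, 3, 4, 5 and 27. Means were 12.6 ± 3.27 CPM (1 week), 4.19 ± 1.98 (6 weeks), 3.26 ± 2.05 (6 months), 3.57 ± 1.83 (12 months) and 3.28 ± 1.23 (14 months). It fell by 1.59 ± 0.41 for 6 weeks against 1 week (edgeR adjusted p = 0.00121) and was at -1.92 ± 0.39 for 14 months against 1 week (adjusted p = 0.000103). For 6 months against 6 weeks it was at -0.38 ± 0.48 and did not pass (adjusted p = 0.930).

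**Figure D3:**
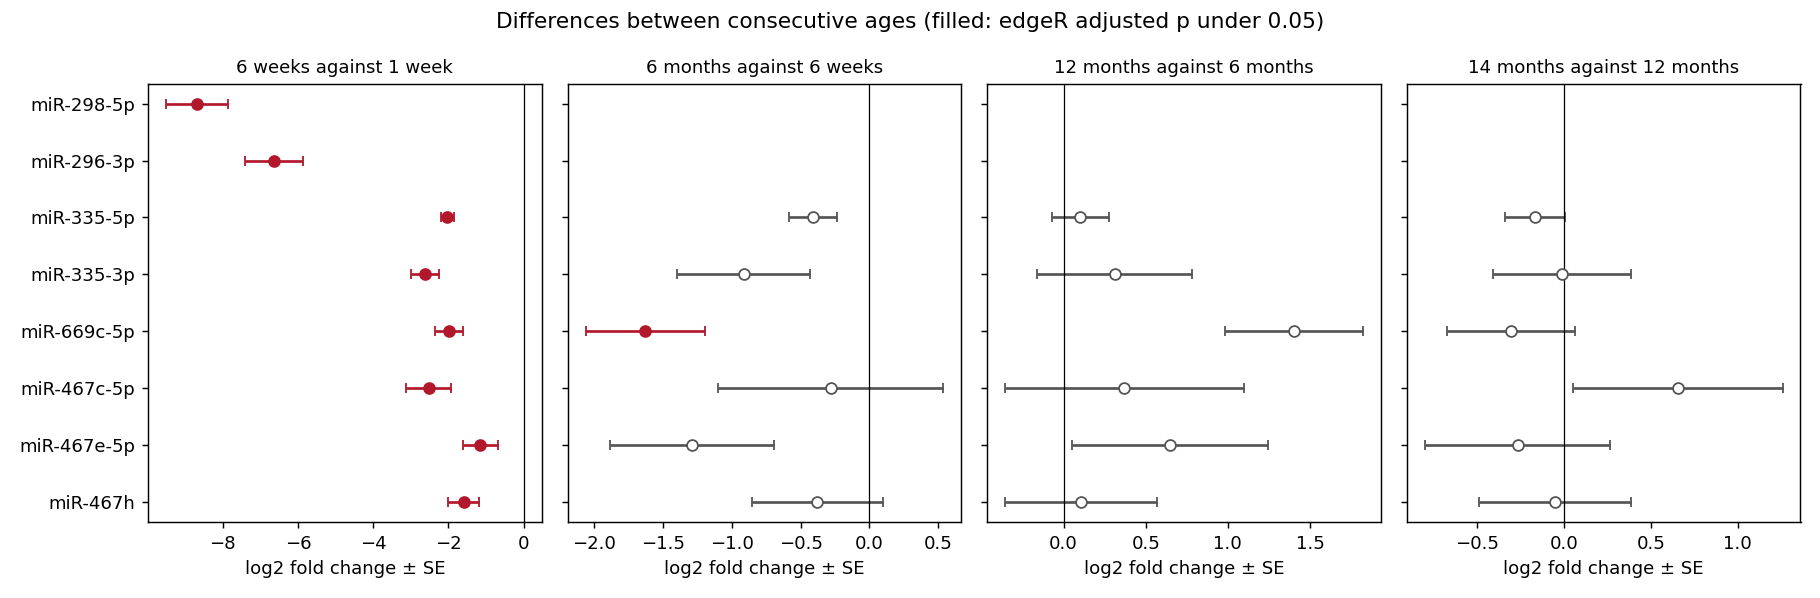
Log2 fold change, older over younger age, with its SE for each miRNA in the 4 contrasts of consecutive ages; filled points passed an edgeR adjusted p of 0.05, and each panel has its own horizontal scale. All 8 points of 6 weeks against 1 week are filled and left of 0; miR-669c-5p at -1.63 for 6 months against 6 weeks is the only other filled point. The Gnas pair is left out where both ages hold at most 3 counts, and its first-panel values are fitted folds with few counts behind the older age.

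Between adult ages, 0 of the 8 passed for 12 months against 6 months, for 14 months against 12 months, and for 14 months against 6 weeks. In edgeR 0%, 0% and 3.84% of tested entries were called in these contrasts, and DESeq2 called 0, 0 and 21 of them; at an unadjusted p under 0.05 the counts were 28, 8 and 92. For 14 months against 6 weeks the 6 miRNAs outside the Gnas pair ran from -0.91 ± 0.54 for miR-467e-5p (adjusted p = 0.317) to 0.74 ± 0.69 for miR-467c-5p (adjusted p = 0.528). Adult counts of 6 members were mostly under 10 per library, so adult differences in them were hardly detectable at this depth. The Gnas pair, at 0 to 2 counts in any adult library, gives no adult comparison.

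In the F test over the 5 ages all 8 passed, with edgeR adjusted p from 2.21e-13 for miR-335-5p to 0.000144 for miR-467e-5p. Of all tested entries 75.4% did. Only miR-335-5p and miR-669c-5p reached the minimum of the low-count filter in at least 5 adult libraries. An age difference in the rest was nearly fixed by that filter, so no conclusion is drawn from the count of 8. Library scaling moved the whole 1-week contrast. For 6 weeks against 1 week 137 of the 281 called entries were higher and the rest lower. With library totals alone 88 were higher and 178 lower (a shift of the median by -0.65), with DESeq2 size factors 107 and 165 (-0.46) and with upper quartile factors 184 and 120 (0.48). All 8 miRNAs were lower under each of these scalings.

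Other imprinted regions give a scale for the falls. For 6 weeks against 1 week the median of the 8 miRNAs was -2.28, and that of all tested entries 0.12. Of 93 table entries from the Dlk1-Dio3 cluster, the large imprinted miRNA cluster of chromosome 12, 56 were tested, and all 56 were lower at 6 weeks than at 1 week, with a median of -5.34. Of 4 entries from H19 and Igf2, 3 were tested and all 3 were lower, with a median of -7.71. The background called lower was 36.8% of tested entries. These counts were largely set by the filter, since 40 of the 56 and all 3 of the H19 and Igf2 entries reached its minimum in fewer than 5 adult libraries. The Gnas pair lay in the range of those regions, at fitted values of -8.68 for miR-298-5p and -6.64 for miR-296-3p, while miR-335, miR-669c-5p and the miR-467 entries were at -2.63 to -1.15, above the highest Dlk1-Dio3 entry at -3.04. No test was made of these differences between loci.

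The 1-week libraries also differed among themselves. miR-298-5p spanned 6.67-fold and miR-296-3p 4.78-fold among the 5 mice, while the other 6 spanned 1.62-fold to 2.52-fold. Mouse 1 was lowest and mice 4 and 27 highest for the Gnas pair and for miR-669c-5p. For miR-335-5p mice 4 and 27 were lowest and mouse 1 highest, while its other arm miR-335-3p was lowest in mouse 1 and highest in mouse 4.

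Per 1000 miR-335-5p counts the Gnas pair had 0 to 5.52 counts in adult libraries, against 16.1, 55.1, 158, 49.0 and 147 counts in 1-week mice 1, 3, 4, 5 and 27. The Dlk1-Dio3 entries summed to 13387, 15143, 23817, 15924 and 32457 CPM in these mice, and the H19 and Igf2 entries to 1020, 1467, 2188, 1793 and 1306 CPM. Striated muscle miRNAs (miR-1a-3p, miR-133a-3p and miR-206-3p) summed to 318, 204, 510, 58.0 and 1122 CPM. Mice 4 and 27 were highest in the Dlk1-Dio3 and muscle sums as well, but mouse 27 was second lowest in the H19 and Igf2 sum and mouse 5, not mouse 1, lowest in the muscle sum. The epithelial sum was 846, 949, 1209, 1053 and 1367 CPM in mice 1, 3, 4, 5 and 27. Like the Gnas pair, it was lowest in mouse 1 and highest in mice 4 and 27. The hepatocyte sum was highest in mouse 5, at 572121 CPM. The endothelial, erythroid, and stellate and smooth muscle sums were lowest in mouse 27, at 21071, 416 and 3878 CPM. The leukocyte sum was lowest in mouse 4, at 4964 CPM. The part of muscle or other tissue in the spread of the Gnas pair was not tested.

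**Figure D4:**
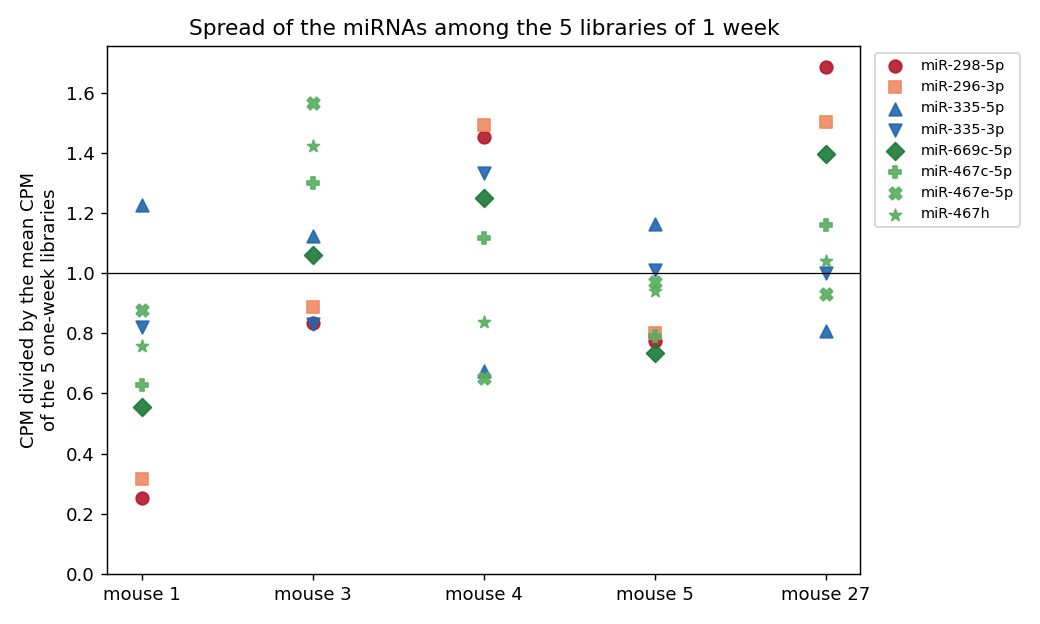
Level of each of the 8 miRNAs in the 5 libraries of 1 week, as CPM divided by the mean CPM of those 5 libraries, by mouse number. miR-298-5p and miR-296-3p are lowest in mouse 1 and highest in mice 4 and 27, while miR-335-5p is highest in mouse 1 and below 1 in mice 4 and 27.

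Marker miRNAs of liver, blood, epithelial and muscle cells moved with the same contrast. All 5 hepatocyte entries passed as higher at 6 weeks, and their sum was 621777 to 973154 CPM over the adult libraries, against 399945 to 572121 CPM at 1 week. Lower at 6 weeks were 5 of 5 epithelial entries (sums of 354 to 610.3 CPM in adults, against 846 to 1367 CPM at 1 week), 4 of 5 erythroid entries (180.0 to 558 CPM, against 416 to 920.1 CPM) and 4 of 5 leukocyte entries (2150.3 to 5097 CPM, against 4964 to 5589 CPM). Both tested striated muscle entries of 3 were lower as well, at sums of 1.63 to 13.4 CPM in adults against 58.0 to 1122 CPM at 1 week. Of 2 endothelial entries 1 passed as higher, with sums of 34931 to 61308 CPM in adults against 21071 to 38902 CPM at 1 week, and of 5 stellate and smooth muscle entries 2 passed as higher, at 6113 to 9681 CPM against 3878 to 5988 CPM. Each marker entry had counts at every age. The part of these differences in the falls of the 8 miRNAs was not tested.

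Beyond the 8, the table holds 50 more entries of the families that make up the Sfmbt2 cluster (miR-297, miR-466, miR-467 and miR-669), 54 in all, of which 45 have a precursor inside Sfmbt2. Only miR-467c-5p, miR-467e-5p, miR-467h and miR-669c-5p of the 54 passed the filter. The remaining 50 summed to 5.82 ± 3.69 CPM at 6 weeks and 4.14 ± 2.11 at 14 months, against 20.2 ± 10.6 CPM at 1 week, from 131 counts in all adult libraries and 628 at 1 week. Among them, and chosen after their values were seen, were miR-467d-5p, with 35 counts in all adult libraries against 151 at 1 week, and miR-466h-5p, with 9 against 97. The other arm of Mir669c, miR-669c-3p, had 2 counts in 1 adult library and no count at 1 week.

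Reads may not always be told apart within these families. Of the 54 entries, 26 in 8 groups had rows identical to another entry's in all 25 libraries. The groups with most counts were 5 entries of miR-466 3p arms with 24 counts each, and miR-669a-3p with miR-669o-3p at 15 each. In the other groups each entry held 1 to 5 counts, so few that rows can match by coincidence. None of the 8 miRNAs described here had such a row. How reads that match several family members were assigned is not stated, so the split among miR-467c-5p, miR-467e-5p and miR-467h is uncertain.

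The closest patterns in the table were sought among 331 other tested miRNAs by Pearson r of log2 CPM over the 25 libraries. These values are descriptive: the libraries fall into 1-week and adult clusters, depth is shared by all entries of a library, and r mainly measures that common gap. For miR-298-5p they were miR-412-5p (r = 0.983) and miR-679-5p (0.977), and for miR-296-3p miR-675-3p (0.956) and miR-483-3p (0.953). For miR-335-5p they were miR-323-3p (0.938) and miR-431-5p (0.932), and for miR-335-3p again miR-675-3p (0.924) and miR-412-5p (0.921). The nearest entries of the other 4 had lower r: miR-409-5p and miR-412-5p for miR-669c-5p (0.855 and 0.824), miR-382-3p and miR-299a-3p for miR-467c-5p (0.829 and 0.827), miR-15b-3p and miR-376a-5p for miR-467e-5p (0.784 and 0.758), and miR-672-5p and miR-574-5p for miR-467h (0.861 and 0.836). All the neighbours named for the Gnas and Mest miRNAs had, like the Gnas pair, under 30 counts in the 20 adult libraries together.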

How the data were processed

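The authors deposited 1 table of raw counts per miRNA entry with a column per library; the submitters' processing notes name Bowtie, edgeR and mm10. Per the labels, vesicles were pelleted by ultracentrifugation from frozen liver treated with a dissociation kit, and QIAseq miRNA libraries were sequenced on a NovaSeq. Whether counts are reads or unique molecular identifiers is not given in the sources used here, so intervals and floors cover counting error only. Entries kept by filterByExpr (391 of 1493; about 5.75 counts per 1000000 of the unscaled library total in at least 5 libraries) were fitted in edgeR 4.0.16 (R 4.3.3; TMM factors, robust quasi-likelihood), with no covariates. The code was tested on simulated data. The SE is the log2 fold change over the root of its F statistic. Among 50 same-age library pairs the lowest chi-squared per degree of freedom stood at 12.1, so none was a repeat. DESeq2 1.42.0, other scalings and filters, library total as a covariate and leave-one-out fits were alternatives; shares were tested with scipy 1.17.1. Marker and locus lists were taken by miRNA name or precursor position. All 8 miRNAs were named, with the other arms of their precursors that have an entry in the table (miR-296-5p and miR-669c-3p), the tested Sfmbt2-family entries and the 2 nearest patterns of each. The members and lists were chosen with earlier results of these data known.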

Additional observations from a re-analysis of the deposited data

Results flagged for a closer look

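Of 38 sets of 5 libraries (1 miRNA at 1 age), 7 had a library separated from the other 4 by more of the whole range than Dixon's 95% critical value allows. For continuous values chance gives about 1 in 20. In 5 of the 7 a single library held all the counts there were. Such a set is always flagged, so the 7 cannot be set against that rate. These were miR-296-3p in mouse 13 of 6 months (0.877 CPM, 1 count), mouse 19 of 12 months (0.529 CPM, 1 count) and mouse 22 of 14 months (1.45 CPM, 2 counts). The others were miR-298-5p in mouse 6 of 6 weeks (1.40 CPM, 1 count) and mouse 21 of 14 months (0.747 CPM, 1 count). miR-335-3p was low in mouse 25 of 14 months, at 0.676 CPM from 2 counts, with the next library at 2.10 CPM. miR-467h was high in mouse 11 of 6 months, at 6.87 CPM from 7 counts, with the next library at 2.80 CPM. None of the 7 was in a 1-week library.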

How the results depend on the processing

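For 6 weeks against 1 week, 270 of 276 alternative values of the 8 miRNAs kept direction and call. The other 6 are those of miR-467e-5p given above. Of the 276, miR-467c-5p gave 31, against 35 for miR-467e-5p, since it did not pass the filter with some 1-week libraries left out. All 276 for 14 months against 1 week and all 268 for the 4 adult ages against 1 week kept both. The number of tested entries called for 6 months against 6 weeks, 7 in the edgeR model, was 3 with library totals alone, 4 with upper quartile factors, 4 with at least 10 counts in 5 libraries, 3 with log2 library total in the model, and 1 to 13 with a library left out. For 12 months against 6 months it was 3 with no filter, against 0. For 14 months against 6 weeks, 15 calls became 8 with upper quartile factors, 24 with no filter, 9 with mmu-named entries only, 7 with log2 library total, 28 with only those ages fitted, and 8 to 22 with a library left out. The 4 adult ages against 1 week gave 590 with no filter, against 312. Uncalled adult differences that changed sign were miR-467c-5p for 6 months against 6 weeks (0.11 without mouse 8; -0.99 to 0.11 over all libraries left out) and miR-467h for 12 months against 6 months (-0.0062 without mouse 15, -0.20 without mouse 17; -0.20 to 0.54 over all). For 14 months against 12 months they were miR-467h (0.015 with log2 library total, 0.27, 0.047 and 0.081 without mouse 17, 21 or 23; -0.29 to 0.27 over all) and miR-335-3p (7.3e-05, 0.053, 0.15, 0.0044 and 0.21 without mouse 15, 17, 19, 20 or 25; -0.26 to 0.21 over all). The 5p share of miR-335 for 14 months against 6 weeks was -0.0515 without mouse 9 and -0.0547 percentage points without mouse 25. The cause of these changes was not tested. The mouse numbers are the running numbers of the library titles. No paired analysis was made, since the labels give no link between libraries of different ages. Depth limits the adult values: 6 weeks had the lowest totals.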
